A study of Mus musculus with 2 samples.

Results

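Cytosolic ribosomal protein genes encode the protein parts of the ribosomes that translate most messenger RNA of a cell. The genes described here were chosen by symbol, as every gene named Rpl, Rps or Rplp with a number and at most a short suffix that was listed for both developmental stages. The rule took 81 of 15944 genes, made up of 47 genes of the large (60S) subunit, 31 genes of the small (40S) subunit and the 3 genes of the P stalk, the flexible arm of the large subunit that recruits translation factors. The symbol rule left out a few ribosomal proteins with other names, such as Rpsa, Fau, Rpl36al and Rack1 (listed under its older symbol Gnb2l1), and these are given separately below. It also took in Rpl6l, which the GENCODE M21 annotation types as a processed pseudogene (GRCm38 chr10:111125851-111126721).

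The mandibular prominence is a swelling of the embryo's face, part of the first pharyngeal arch, from which the lower jaw and part of the tongue develop. Cells were dissociated from micro-dissected mandibles of wild-type CD1 mouse embryos and profiled by droplet single-cell RNA sequencing on the 10x Genomics Chromium. There was 1 library from embryonic day 11.5 (E11.5, with the tongue bud) and 1 from embryonic day 13.5 (E13.5, with the tongue and skeletal elements). The E11.5 tissue was digested with Bacillus licheniformis protease at 3 mg/ml and the E13.5 tissue at 5 mg/ml, each for 10 minutes in the cold, and no genotype, drug or other treatment was compared. With 1 library per stage there was no replicate and no test: stage, library and protease concentration cannot be told apart, and the sources used here do not give the number or sex of the embryos behind each library.

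The E11.5 library held 7099 cells with a median of 6231 unique molecular identifiers (UMIs, 1 per captured RNA molecule), and the E13.5 library 6318 cells with a median of 9280. The cell limits of the libraries differed: E11.5 cells had at least 2253 UMIs and a mitochondrial share of up to 7.90%, while E13.5 cells had at least 500 UMIs and a share of up to 19.98%. Xist, transcribed from the inactive X chromosome of female cells, had 0.341 CPM (counts per 1e+06 UMIs) in the E11.5 library and 387 CPM in the E13.5 library. Xist thus differed with stage, and a difference in the sex of the cells cannot be told apart from stage either. The libraries shared 71 cell barcodes. The deposited lineage names were checked against marker genes. The unnamed E11.5 cluster 14 led with Myog, Myod1 and Des and was counted as skeletal muscle, E11.5 cluster 17 (26 cells) led with Sox10 and was counted as glia, the E13.5 cluster deposited as mast cells led with the macrophage genes C1qa, C1qb and C1qc, and E13.5 cluster 8 stayed unnamed.

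A ribosome carries a single copy of nearly every ribosomal protein, so their messenger RNAs are made in related amounts and together form a large part of the RNA of a growing cell. Most of them begin with a C followed by a stretch of pyrimidines, the terminal oligopyrimidine tract, through which growth signals acting on mTOR control their translation. Loss of 1 copy of several of these genes causes Diamond-Blackfan anaemia, which can include craniofacial malformations, and lower ribosome production in neural crest, the source of most jaw mesenchyme, underlies some craniofacial disorders.

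Sequences around the annotated starts are shown for the 6 members of highest and 6 of lowest mesenchyme stage ratio, where they have a RefSeq entry. RefSeq start regions (GRCm38.p6, the assembly also called mm10, which the submitters' processing notes name) were found for 60 of the 81 members. Each window runs 5′ to 3′ on the gene's strand from 15 bases before the annotated start to 15 bases from it, and capitals mark runs of at least 6 bases that are all C or T. A marked run need not begin at the start, so it is not the same as the terminal oligopyrimidine tract. It lies wholly before the start in Rpl39l and wholly after it in Rps12. RefSeq and GENCODE starts can differ, and the Rpl27 window ends before the gene's GENCODE start at 101442298. Only the Rpl39l and Rps28 windows hold the GENCODE gene start. It lies upstream of the window in Rps12 (23787275), Rpl13a (45128761), Rpl28 (4792874), Rpl35 (39005624), Rpl7l1 (46782672) and Rpl15 (18271391). The first 4 genes had higher and the last 5 had lower levels at E13.5 in the mesenchyme.
Rpl39l: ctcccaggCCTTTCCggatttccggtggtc
Rps12: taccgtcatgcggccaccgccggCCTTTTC
Rpl13a: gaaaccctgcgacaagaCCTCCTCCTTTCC
Rpl28: ccgCCTCTCgtgTCTCTCTTTCCgtctccg
Rpl35: cggccccgCCCTTTCCTCTTTCTCTCgaac
Rpl27: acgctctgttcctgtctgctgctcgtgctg
Rpl7l1: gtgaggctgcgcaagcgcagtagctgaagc
Rpl15: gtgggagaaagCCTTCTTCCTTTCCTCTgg
Rps28: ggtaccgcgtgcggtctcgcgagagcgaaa

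These windows lie at chr16:10170213-10170242 (Rpl39l, plus strand), chr10:23787195-23787224 (Rps12, minus), chr7:45128731-45128760 (Rpl13a, minus), chr7:4792950-4792979 (Rpl28, plus), chr2:39005117-39005146 (Rpl35, minus), chr11:101442230-101442259 (Rpl27, plus), chr17:46782642-46782671 (Rpl7l1, minus), chr14:18270972-18271001 (Rpl15, minus) and chr17:33824548-33824577 (Rps28, minus). Long runs stood near the RefSeq start of genes with high and with low stage ratios, the longest of those shown being the 18 bases of Rpl35. A marked run was present in 38 of the 60 members (63.3%) and in 32.7% of the 27025 gene symbols with a start region. In the 300 bases from 250 before to 50 after the start, the letters CCGGAAG, a core of ETS family binding sites, were present on either strand in 25 of 60 members (41.7%) and in 9.93% of all symbols; on the other strand they read CTTCCGG, whose first bases are pyrimidines and can overlap a tract. The letters AAGATGGC, a core of YY1 sites, were present in 6 of 60 members (10.0%) and in 3.19% of all symbols. Of the 14 matched members called 1.5-fold higher at E13.5 in the mesenchyme, 11 had a marked run, as had 27 of the other 46. CCGGAAG was present in 1 of the 14 and in 24 of the 46. These motifs were chosen after the values were seen, and their presence is a description and not a binding site or a cause.

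The first measure was the summed share, the UMIs of all 81 members as a percentage of all UMIs of the genes listed at both stages. In the mesenchyme, the neural-crest-derived connective tissue cells that make up most of the jaw, ribosomal protein UMIs were 19.1% of the UMIs of 5899 cells at E11.5 and 24.6% of those of 3905 cells at E13.5. The E13.5 share was 1.29-fold the E11.5 share (95% exact interval 1.288 to 1.291). Intervals cover counting error only, not the spread between embryos or libraries.

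The share was also higher at E13.5 in epithelium, skeletal muscle and endothelium. Epithelium, the surface layer of the jaw, went from 21.3% in 405 cells to 28.9% in 838 cells, a ratio of 1.357 (1.353 to 1.361). Skeletal muscle cells, which form the tongue, went from 21.3% in 151 cells to 28.6% in 752 cells, a ratio of 1.343 (1.339 to 1.348). Endothelium, the lining of the vessels, went from 19.4% in 162 cells to 25.5% in 137 cells, a ratio of 1.312 (1.306 to 1.318). In cells of 5000 to 8000 UMIs the epithelial ratio was 1.148, on only 30 E13.5 cells, and with each cell thinned to 2000 UMIs it was 1.285. Such a window can also change which clusters the cells come from. The part of depth and of cluster make-up in these values was not tested. The classes share the same 2 libraries, so the likeness of their ratios is not independent evidence of a stage effect.

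Erythroid cells, the red blood cell precursors, had the lowest shares, and their value depended on the denominator. Their ribosomal protein share was 7.03% in 456 cells at E11.5 and 2.28% in 207 cells at E13.5, a ratio of 0.325 (0.323 to 0.327). Haemoglobin made up 70.9% and 61.3% of the UMIs of the 2 E11.5 erythroid clusters and 88.2% of those of the E13.5 cluster. With haemoglobin and mitochondrial UMIs left out of the denominator, the erythroid shares were 21.1% and 19.6% and the ratio was 0.928 (0.921 to 0.935).

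Over single clusters, the highest share at each stage was in an epithelial cluster, and mesenchyme clusters overlapped with those of other classes at both stages. At E11.5 the 11 mesenchyme clusters lay between 17.6% (cluster 4, led by Hand1 and Alx1, transcription factors of the distal jaw) and 20.5% (cluster 5, led by Barx1, Sfrp2 and Ebf1). These E11.5 mesenchyme clusters held from 2.18% (cluster 3) to 68.7% (cluster 5) G1 cells. In G1 cells alone, cluster 0 (18.7%) stood below cluster 4 (18.9%). Clusters 7 (20.9%) and 5 (20.8%) then had overlapping intervals. The highest E11.5 shares were in epithelial cluster 9 with 21.7% and muscle cluster 14 with 21.3%. At E13.5 the highest shares were 30.6% in epithelial cluster 7, 29.6% in muscle cluster 15 and 28.8% in muscle cluster 1. Muscle cluster 19, led by the contractile genes Tnnc2, Acta1 and Myl4, had a lower share of 25.9%. Among the E13.5 mesenchyme clusters, cluster 5, which carries the deposited name osteogenic progenitors and has both bone genes (Ifitm5, Sp7, Runx2) and cartilage genes (Frzb, Col2a1, Matn4) among its leading 10, stood highest with 27.5% (interval 27.48 to 27.56). Cluster 21 was the lowest with 10.4%. The next lowest was cluster 4 with 22.1%, led by Mxd3 and Foxd1 and with the cell cycle gene Top2a among its leading genes. Cluster 4 held 0% G1 cells, against 59.8% in cluster 6, which had a share of 22.6%. Phase by phase, cluster 6 stood below cluster 4, with 22.9% against 23.3% in S and 18.6% against 20.9% in G2M. Clusters differed in phase and were made from expression data that may include these genes, so their order is a description.

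**Figure D1:**
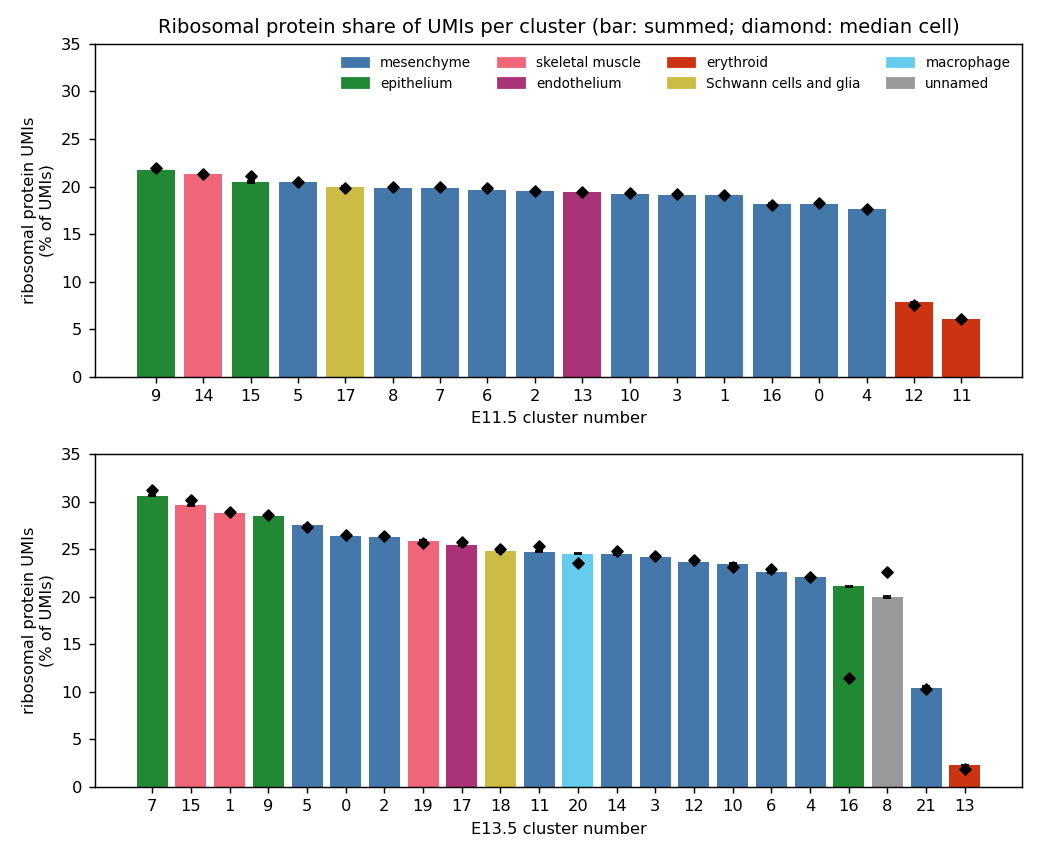
Summed ribosomal protein share of UMIs in percent (bars, with exact 95% intervals) and the median cell's share (diamonds) for each cluster of the E11.5 library (top) and the E13.5 library (bottom), coloured by cell class. Mesenchyme clusters sit between 17.6% and 20.5% at E11.5; at E13.5 epithelial cluster 7 is highest with 30.6%, and clusters 16 and 21 fall below their class.

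E13.5 clusters 16 and 21 stood apart from their classes. Cluster 16, an epithelial cluster of 159 cells led by Krtdap and other genes of differentiating surface layers, had a summed share of 21.1% and a median cell's share of 11.5%, with the middle 50% of cells between 7.73% and 22.4%. Its median cell had 3061 UMIs and a mitochondrial share of 13.8%. Mesenchyme cluster 21, with 72 cells, a median of 1833 UMIs and a median mitochondrial share of 14.5%, had a summed share of 10.4%. The part of low depth and high mitochondrial share in these values was not tested. Without both clusters the E13.5 share was 24.7% in mesenchyme and 29.7% in epithelium.

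Gene by gene, most members had a higher CPM at E13.5 in the mesenchyme. A gene was called higher or lower where its ratio was at least 1.5-fold and the exact interval of the ratio left out 1, which is a rule of size and not a test. By this rule 17 of 81 members were higher and 2 were lower, while 27.1% of all 14139 genes with at least 20 UMIs were higher and 12.2% were lower. The share of members called higher was thus below that of all genes, while their median ratio was above it: the median log2 ratio was 0.43 for members and 0.14 for all genes. The interval lay above 1 in 71 members and below 1 in 9, against 44.1% and 29.7% of all genes. At a smaller step of 1.2-fold 57 members were higher, against 38.8% of all genes, and 6 were lower, against 23.8%. At a step of 2-fold 2 members, Rps12 and Rpl39l, were higher, against 18% of all genes, and 0 were lower, against 5.33%. Scaled by the median ratio of the other genes, 6 members were higher and 4 lower by 1.5-fold, and as a share of ribosomal protein UMIs alone 2 were higher and 7 lower. The ratio of small to large subunit UMIs was 0.796 in the E11.5 mesenchyme and 0.847 in that of E13.5. This ratio weighs abundant genes most, among them the large subunit genes Rpl41 (8910 and 7725 CPM) and Rpl35 (4524 and 2671 CPM), both lower at E13.5. Gene by gene, the median stage ratio was 1.35 for small and 1.31 for large subunit members, so the summed ratio is no shift of a whole subunit.

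**Figure D2:**
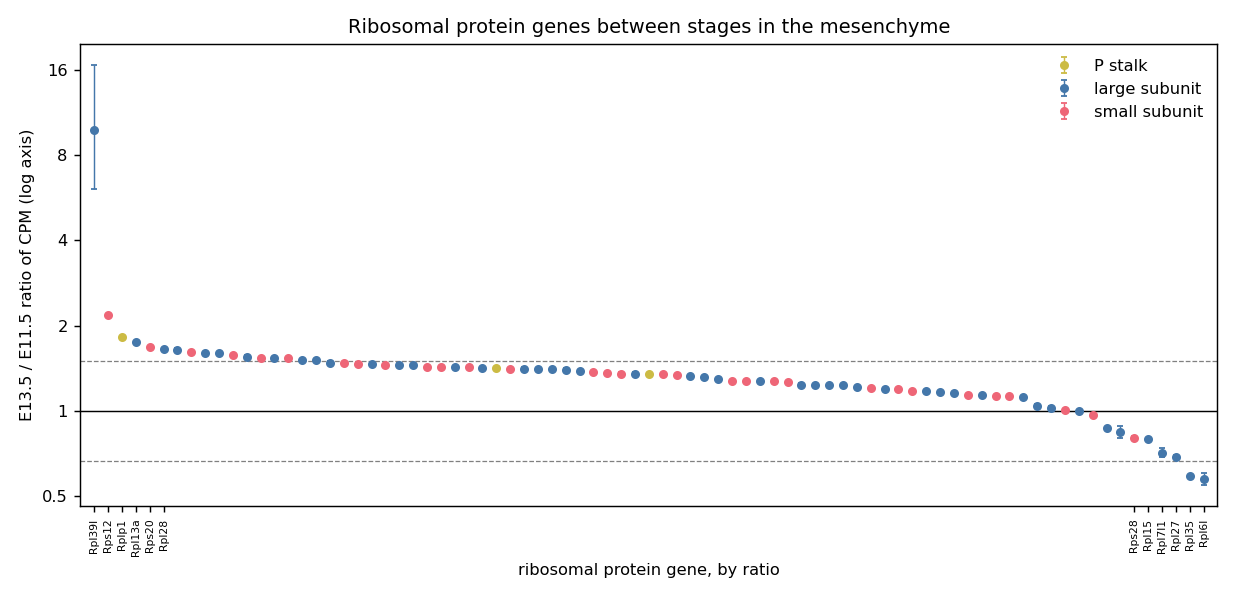
E13.5 over E11.5 ratio of mesenchyme CPM (log axis) for each of the 81 ribosomal protein genes, ordered by ratio and coloured by subunit, with exact 95% intervals and names for the 6 highest and 6 lowest; dashed lines mark 1.5-fold. Most genes form a slope between 1 and 1.6, Rps12 stands at 2.17, and 9 genes at the right end lie below 1 with their whole interval.

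The members called higher were 10 large subunit genes, among them Rpl39l with few UMIs, 6 small subunit genes and the P stalk gene Rplp1. Rps12, a small subunit protein known from its role in cell competition in flies, stood at 768 CPM (E11.5) and 1671 CPM (E13.5), a ratio of 2.17 (2.14 to 2.21). Rplp1, a P stalk protein, stood at 1858 and 3387 CPM, a ratio of 1.82 (1.81 to 1.84). Rpl13a, also known for a role in silencing inflammatory messenger RNAs, stood at 1955 and 3415 CPM, a ratio of 1.75 (1.73 to 1.76). Rps20 of the small subunit had a ratio of 1.68 (1.67 to 1.70) and Rpl28 of the large subunit one of 1.66 (1.64 to 1.67). These 5 genes were higher at E13.5 in each of the 4 classes other than erythroid cells. Across these classes the ratio of Rps12 ranged from 1.98 in endothelium to 2.25 in epithelium. That of Rplp1 ranged more widely, from 1.55 in endothelium to 2.21 in epithelium.

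The 6 lowest ratios belonged to 5 genes named for the large subunit and to Rps28 of the small subunit. Rpl35, a protein near the exit of the nascent chain tunnel, stood at 4524 CPM (E11.5) and 2671 CPM (E13.5), 1.69-fold lower (1.68 to 1.71). The pseudogene Rpl6l stood at 128 and 73.5 CPM, 1.74-fold lower (1.66 to 1.83). Rpl27 went from 1425 to 980.3 CPM, 1.45-fold lower. Rpl7l1, a relative of Rpl7 with a role in large subunit assembly, went from 226 to 161 CPM, 1.41-fold lower. Rpl15 was 1.26-fold and Rps28 1.24-fold lower. In these 4 classes together, 67 members had their interval above 1 in each class, 7 had it below 1 in each (Rpl15, Rpl27, Rpl35, Rpl6l, Rpl7l1, Rps27l and Rps28), and 2 (Rpl38 and Rps29) had intervals on both sides. Of the 8151 genes measured in all 4 classes, 3.23% had the interval above 1 in each and 11.1% below 1 in each. The narrow intervals of abundant genes leave out 1 at small differences.

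**Figure D3:**
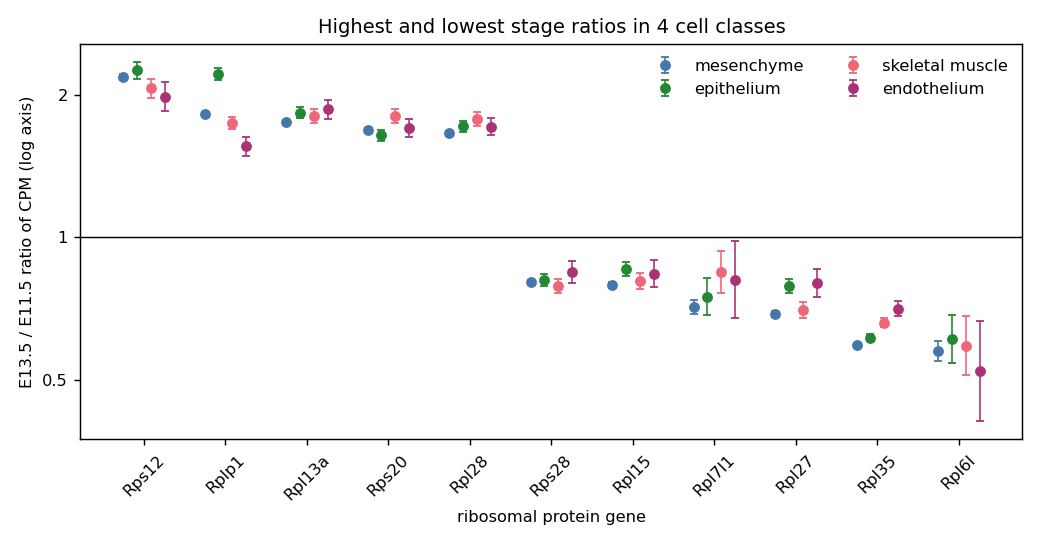
E13.5 over E11.5 ratio of CPM (log axis) with exact 95% intervals for the 5 genes of highest ratio after Rpl39l and the 6 of lowest ratio in the mesenchyme, shown in 4 cell classes. The first 5 genes lie above 1.5 and the last 6 below 1 in every class, and Rplp1 spreads most between classes, from 1.55 to 2.21.

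In epithelium, muscle and endothelium a larger share of members than of all genes passed the 1.5-fold rule upward, and a smaller share passed it downward. In epithelium 27 of 80 members were higher, against 9.35% of all genes, and 2 were lower, against 14.2%. In skeletal muscle 24 of 80 were higher, against 9.4%, and 2 were lower, against 13.6%. In endothelium 15 of 80 were higher, against 7.43%, and 1 was lower, against 13.6%. In erythroid cells 0 of 80 were higher, against 0.921%, and 79 were lower, against 90% of all genes, with haemoglobin in the denominator. The rule needs an interval that leaves out 1, which genes with few UMIs meet less often. All genes were not matched to the members by UMI count, so these shares are not compared at equal depth. The median log2 ratio of members and of all genes was 0.49 and -0.11 in epithelium, 0.46 and -0.13 in skeletal muscle, and 0.43 and -0.12 in endothelium. Differences between classes in these counts were not tested.

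A selection of the genes mutated in Diamond-Blackfan anaemia had mesenchyme stage ratios from 1.03 to 1.54. Rpl35, Rpl27, Rpl15 and Rps28 are also known for this disease, but they were named above because their ratios were low. No full list of the disease's genes was compared. These values therefore give no direction for the disease genes as a group or for those outside the selection. Within the selection, Rps24 alone passed the 1.5-fold rule, with 2354 CPM (E11.5) and 3624 CPM (E13.5), a ratio of 1.54 (1.53 to 1.55). Rpl35a (1.43) and Rps26 (1.41) lay near the median ratio of 1.35, and Rpl11 (1.24) and Rps19 (1.204) below it. Rpl5, which with Rpl11 binds the p53 regulator Mdm2 when ribosome assembly fails, had 943 and 969 CPM, a ratio of 1.03. Rpl38, whose loss in mice changes the translation of Hox messenger RNAs and the skeleton, had 1713 and 1788 CPM, a ratio of 1.04.

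Reads of near-identical ribosomal protein copies may be shared out between genes in ways that the sources used here do not give. Of 14 rows named as ribosomal protein pseudogenes, 13 had at least 20 UMIs in the mesenchyme, and 8 of these were at least 1.5-fold lower at E13.5 and 0 higher, against 12.2% and 27.1% of all genes. Their summed share was 0.140% of mesenchyme UMIs at the earlier stage and 0.0732% at the later. Rpl10-ps3 went from 226 to 12.8 CPM, Rps26-ps1 from 259.5 to 39.8 CPM and Rps2-ps6 from 52.4 to 1.196 CPM. With pseudogene UMIs added to their parent genes, 15 members were higher and 2 lower, and the log2 ratio of Rps12 was 1.05 in place of 1.12.

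In all, 5 members have symbols that make them paralogs of another member, among them the pseudogene Rpl6l, and 3 of them are described first. Rpl22l1 and Rpl22 encode alternative forms of the same large subunit protein. In the mesenchyme Rpl22l1 had 1058 CPM (E11.5) and 1490 CPM (E13.5), while Rpl22 had 1354 and 1349 CPM. Rpl22l1 was thus 43.9% of the UMIs of the pair at E11.5 (43.5 to 44.2) and 52.5% at E13.5 (52.2 to 52.8). Its share went from 46.5% to 50.6% in epithelium and from 46.4% to 49.0% in muscle. In endothelium it was 47.4% (45.8 to 49.1) and 46.9% (45.4 to 48.4), with intervals that overlap. In erythroid cells it was lower at E13.5, 24.2% against 41.5%. The highest values of a mesenchyme cluster at E13.5 were 55.8% in cluster 3 and 55.3% in clusters 4 and 6.

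Rps27l, a paralog of Rps27 that is known as a target of p53, did not follow the other members. Its mesenchyme level was 790 CPM (E11.5) and 761 CPM (E13.5), and its share of the Rps27 pair went from 29.1% (28.8 to 29.3) to 22.6% (22.3 to 22.8). The share was lower at E13.5 in each of the 5 classes, among them muscle with 39.3% and 28.3% and epithelium with 23.3% and 17.99%. Between clusters of the E13.5 mesenchyme it ranged from 15.1% (523 CPM) in cluster 0 to 30.8% (1161 CPM) in cluster 11. Over the 10 E13.5 mesenchyme clusters other than cluster 21, its Spearman rho with the summed share was -0.28, while 48 of 81 members had a rho above 0.8 and 1 a rho below 0. Over the 11 E11.5 mesenchyme clusters its rho was 0.055 and 40 of 81 members were above 0.8. All of these points come from the same library at each stage, and each member is part of the sum.

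Rpl39l, a paralog of Rpl39 known for its high level in male germ cells (GENCODE M21, GRCm38 chr16:10170226-10174911, plus strand), had few UMIs and an uneven pattern. In the mesenchyme it had 19 UMIs (0.509 CPM) at E11.5 and 171 UMIs (4.99 CPM) at E13.5, a ratio of 9.79 (6.08 to 16.7). With each cell thinned to 2000 UMIs the ratio was 5.70. It had 0 UMIs in 8 of the 18 E11.5 clusters and no E11.5 cluster was above 2.07 CPM. At E13.5 it reached 26.2 CPM (19.2 to 34.9) in mesenchyme cluster 14, led by the fibroblast genes Dpt, Lox and Ogn. A UMI was found there in 30 of 183 cells (16.4%, 11.3 to 22.6, median 8991 UMIs per cell), and in 0 of 163 cells of muscle cluster 15 (median 15456 UMIs). That count of 0 allows up to 1.84% of cells with a UMI (3 counts of the total), which is no limit on cells expressing the gene. Mesenchyme cluster 2 had 12.5 CPM and cluster 10 had 7.70 CPM. These 3 clusters held 123 of the 227 Rpl39l UMIs of the E13.5 clusters. The macrophage cluster 20 had 27.1 CPM (18.6 to 38.0) from 33 UMIs in 6 of 73 cells. Epithelium and muscle had 0 UMIs at E11.5, which allows up to 1.01 CPM and 1.64 CPM, and 10 and 6 UMIs at E13.5. Endothelium had 3 UMIs at each stage and erythroid cells 2 and 0.

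The other paralogs were small parts of their pairs at both stages, and smaller ones at E13.5. In the mesenchyme Rpl7l1 went from 6.99% of the Rpl7 pair to 4.35% between the stages, and Rpl6l from 4.73% of the Rpl6 pair to 2.25%. Rpl7 had 3013 and 3539 CPM and Rpl6 2575 and 3188 CPM.

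**Figure D4:**
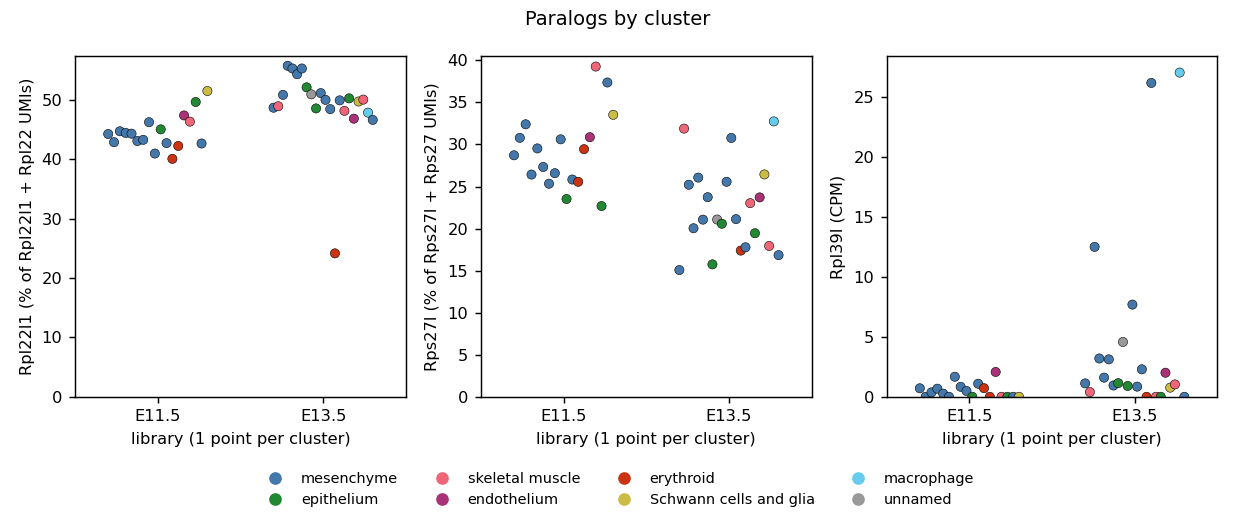
Share of Rpl22l1 in the UMIs of the Rpl22 pair (left, percent), share of Rps27l in those of the Rps27 pair (middle, percent) and level of Rpl39l (right, CPM) in each cluster of both libraries, with clusters spread sideways by number and coloured by class. Rpl39l stays at or below 2.07 CPM in E11.5 clusters and reaches 26.2 CPM in mesenchyme cluster 14 and 27.1 CPM in the macrophage cluster at E13.5.

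Compared with mesenchyme of the same library, Rps2 was, by the geometric mean of both stages, 1 of the 2 members of highest ratio in epithelium, muscle, endothelium and erythroid cells, the 4 classes compared. These classes share the mesenchyme as reference, so its own Rps2 level enters every ratio and the 4 results are not independent. Rps2 is a small subunit protein at the entry of the messenger RNA channel. In muscle it had 3918 CPM against 2577 CPM in mesenchyme at E11.5, a ratio of 1.52 (1.48 to 1.56), and 4825 against 2911 CPM at E13.5, a ratio of 1.66 (1.64 to 1.67). It was the only member of 80 at E11.5 (6.92% of all genes were higher) and of 81 at E13.5 (9.82%) that passed the 1.5-fold rule upward in muscle. In epithelium its ratio was 1.22 at E11.5, where 0 members passed (12.6% of all genes), and 1.53 at E13.5, where it was the 1 member that did (12.7%). In endothelium the ratio was 1.27 and 1.42, and 0 of 81 members passed upward at either stage (15% and 12% of all genes). After Rps2, the member highest in epithelium was Rpl12 of the stalk base (1.21 and 1.39) and in muscle Rps25, needed by some viral internal ribosome entry sites (1.38 and 1.40).

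The members lowest against mesenchyme differed by class. In epithelium it was Rps27l (0.902 and 0.828) and in muscle Rps27 (0.919 and 0.922), beside Rpl39l with its few UMIs. In endothelium Rps26 was at 0.789 and 0.722 and Rpl7l1 at 0.775 and 0.886. Downward, 0 members passed 1.5-fold at E11.5 in epithelium, muscle and endothelium (11%, 13% and 17.5% of all genes). At E13.5 it was 1 member each in epithelium (25.6%) and muscle (37.1%), Rpl39l in both, and 0 in endothelium (24.5%).

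In erythroid cells, haemoglobin UMIs were left out of both denominators for the comparison with mesenchyme. Rps2 had 4764 against 2609 CPM at E11.5, a ratio of 1.83 (1.79 to 1.86), and 7497 against 2918 CPM at E13.5, a ratio of 2.57 (2.48 to 2.66). Rplp0, the P stalk protein on which Rplp1 and Rplp2 assemble, had 6748 against 3363 CPM and 7298 against 4698 CPM, ratios of 2.01 and 1.55. These were the 2 members passing 1.5-fold upward at both stages, of 2 at E11.5 (8.88% of all genes) and 4 at E13.5 (5.08%). Downward, 0 members passed at E11.5 (34.9%) and 41 of 81 at E13.5 (36.8%), among them Rps27l with ratios of 0.679 and 0.313.

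The deposited cell cycle phases separated the shares within the mesenchyme. At E11.5 the summed share was 19.99% in 1870 G1 cells, 19.5% in 1794 S cells and 18.3% in 2235 G2M cells. At E13.5 it was 25.98% in 2225 G1 cells, 24.9% in 884 S cells and 21.7% in 796 G2M cells. The G2M share thus stood at 0.917 of the G1 share at E11.5 (0.915 to 0.919) and 0.836 at E13.5 (0.835 to 0.838). The S share was 0.976 (0.974 to 0.978) and 0.957 (0.956 to 0.959) of the G1 share. G2M cells were deeper, with medians of 7305 against 4702.5 UMIs at E11.5 and 10735 against 7376 at E13.5. In cells of 5000 to 8000 UMIs, the log2 ratio of G2M over G1 was -0.14 and -0.32, against -0.12 and -0.26 in all cells. That of S over G1 at E13.5 was -0.031, against -0.063 in all cells.

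The lower G2M share was spread over nearly all members. The interval of the G2M over G1 ratio lay below 1 in 76 of 81 members at E11.5 and in 78 at E13.5, with 76 below 1 at both stages. Of all genes, which were not matched to the members by UMI count, the interval lay below 1 in 20.5% and 28.1%. The median log2 ratio was -0.12 and -0.26 for members and -0.044 and -0.092 for all genes. By at least 1.2-fold, 0 of 80 members with enough UMIs were lower at E11.5, against 14.5% of all genes, and 36 of 81 were lower at E13.5, against 23.8%. Upward at this step it was 0 at E11.5 (10.8% of all genes) and 1, Rps27l, at E13.5 (15.6%). By 1.5-fold, 0 members were higher or lower in G2M at either stage, against 4.79% and 6.56% of all genes at E11.5 and 7.7% and 12.7% at E13.5. In S cells 0 members were 1.5-fold higher at E11.5 (4.85%) or E13.5 (7.89%), 0 were lower at E11.5 (3.24%), and 1, Rpl39l, was lower at E13.5 (4.9%). By 1.2-fold in S cells 0 were lower at E11.5 (9.53%) and 1, again Rpl39l, at E13.5 (13.9%), while 0 were higher at either stage (9.36% and 15.3%). By the geometric mean of both stages, the 2 lowest ratios belonged to Rpl6l (0.847 and 0.738) and Rpl10 (0.839 and 0.746), an X-linked protein that joins the large subunit late in its assembly. At the other end, Rps27l had 786 CPM in G1 and 789 CPM in G2M cells at E11.5 and 687 and 875 CPM at E13.5, a ratio of 1.27 (1.24 to 1.31). Rpl7l1 had ratios of 1.06 and 1.09.

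Within single mesenchyme clusters with at least 50 cells in both phases, the G2M share was below the G1 share in 6 of 6 clusters at E11.5 (ratios 0.866 to 0.927) and in 4 of 4 at E13.5 (0.792 to 0.860). The interval of the S over G1 ratio lay below 1 in 3 and above 1 in 0 of 5 clusters at E11.5, and below 1 in 2 and above 1 in 3 of 5 at E13.5, so the small S difference was not shared by all clusters. In epithelium the share was 22.7%, 21.2% and 19.6% in G1, S and G2M at E11.5 and 30.4%, 29.5% and 26.5% at E13.5, the order seen in mesenchyme. In muscle it was 20.8%, 21.5% and 21.3% at E11.5 and 28.3%, 29.3% and 28.2% at E13.5. The E11.5 G1 value rests on 32 cells. At E13.5 the phases lay in different muscle clusters: 251 of the S cells and 240 of the G2M cells were in cluster 1, while of the G1 cells 137 were in cluster 15, with a share of 30.1%, and 80 in cluster 19, with 25.9%. Phase and cluster cannot be told apart there. Endothelium was highest in S, with 20.3% in 42 cells at E11.5 and 26.7% in 31 cells at E13.5. Haemoglobin was 9.29% of the UMIs of its E13.5 G1 cells and 0.160% of those of its S cells. Without haemoglobin and mitochondrial UMIs, S stayed highest at E11.5 with 21.5%. At E13.5 G1 was then highest, with 28.3%, 27.8% and 26.6% in G1, S and G2M.

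**Figure D5:**
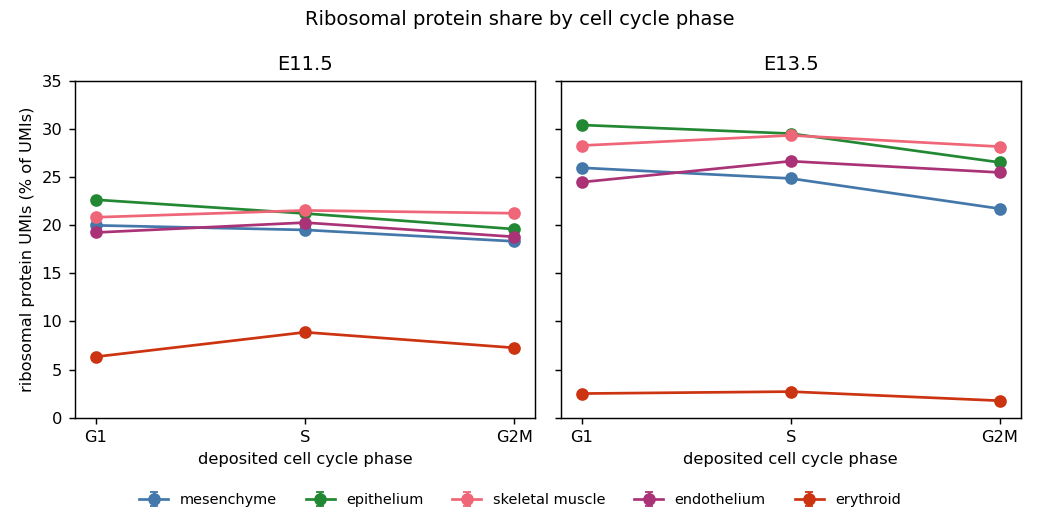
Summed ribosomal protein share of UMIs in percent in cells of the deposited phases G1, S and G2M for 5 cell classes at E11.5 (left) and E13.5 (right), with exact 95% intervals smaller than most points. Mesenchyme and epithelium step down from G1 to G2M at both stages, to 18.3% and 19.6% at E11.5, while muscle does not step down in this order.

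Lists of related genes in the mesenchyme gave other counts by the 1.5-fold rule, to be read against the same 27.1% higher and 12.2% lower of all genes. Among ribosomal proteins outside the symbol rule, Rpsa was higher with a ratio of 1.60. Fau, a ubiquitin-like fusion of a small subunit protein, had a ratio of 1.32, Gnb2l1 1.24 and Rpl36al 1.01. Of 31 translation factors 5 were higher and 6 lower; the median log2 ratio was -0.04. The higher ones were the elongation factors Eef1a1 (1778 and 4158 CPM, 2.34-fold) and Eef2 (1.62-fold), Tpt1 (2.004-fold), Eif4a2 (2.14-fold) and Eif3f (1.67-fold). The lower ones included the cap-binding initiation factor Eif4e (401 and 209 CPM, 1.92-fold) and Eif4g2 (2.25-fold).

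Genes that build ribosomes gave calls in the other direction. Of 39 ribosome biogenesis genes 0 were higher and 13 lower; the median log2 ratio was -0.34. The lower ones included Polr1b, a subunit of RNA polymerase I (2.21-fold), Gar1 of the snoRNA complexes that modify ribosomal RNA (147 and 69.3 CPM, 2.12-fold), and Tcof1, mutated in Treacher Collins syndrome (60.4 and 35.4 CPM, 1.70-fold). Polr1d, of RNA polymerases I and III and mutated in the same syndrome, had 178 and 259.8 CPM, a ratio of 1.46. Of 77 mitochondrial ribosomal proteins 0 were higher and 13 lower; the median log2 ratio was -0.31. Of 13 genes of growth control, Mxd4, a repressor that competes with Myc proteins, was higher (1.69-fold), and Mycn (101 and 16.7 CPM, 6.06-fold) and Eif4ebp1, the brake on Eif4e (1.66-fold), were lower. Of 8 genes of the p53 response, Cdkn1a (2.51-fold) and Phlda3 (2.83-fold) were higher and 0 were lower.

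Over the 39 clusters of at least 50 cells in both libraries, 55 of 81 members had a Spearman rho above 0.9 with the summed member CPM. A rho below 0 was found for 5, Rpl7l1, Rpl6l, Rpl27, Rpl35 and Rps28, which had low stage ratios. Within a single library, 1 member had a rho below 0 over the 17 E11.5 clusters and 0 over the 22 E13.5 clusters. In these, Rpl35 had a rho of 0.914 and 0.923. Among 1265 other genes with at least 100 CPM in the median cluster, the 10 most alike were Gm10260 (rho 0.981), Gm10709, Rps18-ps3, Fau (0.951), Gnb2l1, Uqcrh, Tpt1, Rpsa, 1810022K09Rik and Nsa2 (0.860). Fau, Gnb2l1 and Rpsa are ribosomal proteins by another name, Tpt1 is a translation-related gene, and Uqcrh is a subunit of respiratory complex III. The clusters share 2 libraries and span their difference in stage and haemoglobin content, so these values describe the order only. Transcript length, known for 80 members, had a rho of 0.066 with the stage ratio in the mesenchyme, and a weak relation of this kind is no finding.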

How the data were processed

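The authors deposited raw UMI counts per gene and cell for each library, and per cell the mitochondrial fraction, cell cycle scores, phase, cluster and lineage name. Alignment and clustering tools were Cell Ranger 2.0.0 and Seurat 2.3.4 on mm10, per the submitters' processing notes. How reads matching several genes were counted, and whether doublets were removed, was not given in the sources used here, and no doublet caller was run.

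Counts were summed over cells of a class, cluster or phase and divided by the UMIs of the 15944 genes listed at both stages (Python 3.11.15, scipy 1.17.1). Ratios have exact conditional binomial 95% intervals and shares have exact Clopper-Pearson ones, both for counting error only, and a count of 0 is given the limit of 3 counts; they were checked on simulated data. Genes with at least 20 UMIs in both groups together were measured, and higher or lower means at least 1.5-fold with an interval that leaves out 1. CPM were not divided by transcript length. The deposited phase was used, and the scores were not.

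Genes were named by rule. The rules took the 6 highest and 6 lowest mesenchyme stage ratios (at least 50 UMIs) and paralogs with their partners. They also took the 2 highest and 2 lowest ratios of each class to mesenchyme and of G2M to G1. Added to these were a selection of the Diamond-Blackfan genes with Rpl38, and the 10 genes most alike in order. The members and lists were chosen with earlier results of these data known. Alternatives changed the denominator, the cells, the depth, the scale and the thresholds. A few genes that these rules name are not reported here.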

Additional observations from a re-analysis of the deposited data

Results flagged for a closer look

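The erythroid cells differed in direction from the other 4 classes: the E13.5 over E11.5 ratio of their summed ribosomal protein share was 0.325, while it was above 1 in mesenchyme, epithelium, muscle and endothelium. This difference was not tested, since each stage has 1 library, and the erythroid ratio was 0.928 without haemoglobin and mitochondrial UMIs.

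Rpl3l, a striated muscle paralog of Rpl3, was listed in the E13.5 table only and so is not among the 81 genes. It had 6 UMIs in 6 of 6318 cells, and 4 of them lay in the 80 cells of muscle cluster 19, above the 3 counts that a count of 0 allows.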

How the results depend on the processing

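No paired analysis was possible because each stage has 1 library, and leaving out a replicate was not possible for the same reason. Under the alternatives run, the 5 stage ratios and 4 phase ratios of the summed share kept their direction in every case. Because the counting intervals are narrow, 66 of 102 recomputed values lay outside the interval or range of the value reported or, for counts, moved by over 1.5 times, and they are given here as log2 ratios. In all cells the log2 stage ratio was 0.37 in mesenchyme, 0.44 in epithelium, 0.43 in muscle, 0.39 in endothelium and -1.62 in erythroid cells, and the log2 ratio to G1 for E11.5 was -0.035 in S and -0.12 in G2M and for E13.5 -0.063 in S and -0.26 in G2M. With haemoglobin and mitochondrial UMIs out of the denominator, the stage ratio was 0.33 in mesenchyme, 0.41 in epithelium, 0.38 in muscle, 0.41 in endothelium, -0.11 in erythroid cells, and the phase ratio was -0.13 for G2M at E11.5. As the mean over cells, the stage ratio was 0.34 in mesenchyme, 0.31 in epithelium, 0.44 in muscle, 0.36 in endothelium, -1.68 in erythroid cells, and the phase ratio was -0.13 for G2M at E11.5, -0.041 for S at E13.5. Within the E11.5 cell limits, the stage ratio was 0.37 in mesenchyme, 0.47 in epithelium, and the phase ratio was -0.066 for S at E13.5. In E13.5 cells with no Xist UMI, the stage ratio was 0.37 in mesenchyme, 0.45 in epithelium, 0.42 in muscle, 0.36 in endothelium, -1.67 in erythroid cells. In G1 cells, the stage ratio was 0.38 in mesenchyme, 0.43 in epithelium, 0.44 in muscle, 0.35 in endothelium, -1.34 in erythroid cells. Thinned to 2000 UMIs, the stage ratio was 0.36 in mesenchyme, 0.36 in epithelium, 0.44 in muscle, 0.42 in endothelium, -1.70 in erythroid cells, and the phase ratio was -0.13 for G2M at E11.5, -0.057 for S at E13.5, -0.28 for G2M at E13.5. Without the 5% of cells of highest UMI count in each cluster, the stage ratio was 0.37 in mesenchyme, 0.43 in epithelium, 0.38 in endothelium, -1.70 in erythroid cells, and the phase ratio was -0.13 for G2M at E11.5, -0.060 for S at E13.5, -0.28 for G2M at E13.5. Without E13.5 clusters 16 and 21, the stage ratio was 0.37 in mesenchyme, 0.48 in epithelium. In cells of 5000 to 8000 UMIs, the stage ratio was 0.39 in mesenchyme, 0.20 in epithelium, 0.56 in muscle, 0.45 in endothelium, -1.80 in erythroid cells, and the phase ratio was -0.14 for G2M at E11.5, -0.031 for S at E13.5, -0.32 for G2M at E13.5. With pseudogene rows added, the stage ratio was 0.36 in mesenchyme, 0.43 in epithelium, 0.42 in muscle. The 5000 to 8000 UMI window held 30 epithelial, 8 muscle and 15 endothelial cells at E13.5. The gap between the highest and lowest cluster was 15.6 percentage points for E11.5 and 28.4 for E13.5, 4.38 and 19.6 without haemoglobin and mitochondrial UMIs, where the lowest was mesenchyme cluster 4 in place of erythroid cluster 11 and mesenchyme cluster 21 in place of erythroid cluster 13, and 15.8 and 28.6 as means over cells. Of the counts of members at 1.5-fold in the mesenchyme (17 higher, 2 lower), the scale of the other genes, which moved every log2 ratio by -0.14, gave 6 and 4, the share of ribosomal protein UMIs 2 and 7, a 1.2-fold step 57 and 6, and a 2-fold step 2 and 0. Restricting cells, asking for at least 200 UMIs or adding pseudogene rows gave 15 to 20 higher and 2 lower. None of the 12 genes of highest and lowest ratio reversed in 108 recomputed values; the log2 ratio of Rpl39l was 2.51 after thinning and 3.29 before, where few UMIs limit it. The causes of these movements were not tested. The window of 5000 to 8000 UMIs, the removal of clusters 16 and 21 and the added pseudogene rows were chosen after seeing the data.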
